A study of Rattus norvegicus with 241 samples.

Results

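Plasma cells of the whole mammary gland were defined as cells with at least 5 UMIs (unique molecular identifiers, each marking 1 captured RNA molecule) over MZB1 and JCHAIN, at least 2 of them of MZB1, and no UMI of MS4A1, CD3E or C1QA. The last genes mark B cells, T cells and macrophages. The rule found 66 cells among the 103524 cells of 9 glands, 9 cells in control rats and 57 in drug-treated rats. The rats were virgin female Sprague Dawley (SD) rats, an outbred stock, and were about 24 days old when dosing began. Vehicle, or 75 mg/kg of the TGFβ type I receptor inhibitor (TGFBRi) that the labels call LY22157299, was given by oral gavage 2 times a day for 10 days. The glands were taken on day 0, when dosing stopped, and were not sorted, so each table holds epithelium, stroma and leukocytes of 1 animal. The 3 control rats were numbered 1, 2 and 4, and the 6 TGFBRi-treated rats, called drug rats here after the labels, were numbered 1, 2, 4, 6, 11 and 14. The chemistry captured the 5′ ends of transcripts.

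Plasma cells are the antibody-secreting end stage of the B cell lineage. When a B cell becomes a plasma cell it switches off the program of the mature B cell, including antigen presentation on MHC class II, and enlarges its endoplasmic reticulum (ER) so that large amounts of immunoglobulin can be translocated, folded, glycosylated and exported. PRDM1 (Blimp-1), IRF4 and XBP1 are the transcription factors best known for this switch. MZB1 is an ER protein that assists antibody assembly, JCHAIN joins the units of polymeric antibody, and in the lactating gland plasma cells supply the antibodies of milk. TGFβ is known as a signal for switching to IgA.

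The number of plasma cells was small in every gland. Control rats 1, 2 and 4 gave 5, 3 and 1 cells. Drug rats 1, 2, 4, 6, 11 and 14 gave 8, 7, 2, 34, 5 and 1 cells. Drug rat 6 therefore held 34 of the 66 plasma cells, and 16 of those barcodes stood apart from the rest, as described next.

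In these 16 barcodes of drug rat 6, the feature with the most UMIs among those without a gene name was the same one, AABR07061036.1, a clone-based identifier that neither the tables nor the RefSeq gene table pairs with a gene. They were shallow, with 504 to 4237 UMIs per barcode (median 1219). The feature gave 3.14 to 9.78 UMIs per UMI of JCHAIN in each of them (median 5.44). All 16 held UMIs of CSN1S1, a casein of milk, at 11368 CPM (UMIs scaled to a common library size) in their sum, against 12020 in all cells of that rat. Its other 18 plasma cells held 464 UMIs of CSN1S1, of which 458 lay in 1 cell that also held 26 of EPCAM, and the level was 2071 CPM with that cell and 30.6 CPM without it. Their summed HSP90B1 level was 6821 CPM, against 370.1 in all cells of the rat and 2227 in its other plasma cells. AABR07061036.1 stood at 33.5 CPM in the whole table of drug rat 6 and at 0.438 to 6.91 in the other 8 tables. Of the 29 cells of that rat with at least 10 UMIs of it, 13 were not plasma cells by the rule, and the highest of these held 588 UMIs. Whether these barcodes are separate cells was not tested, so the shares of plasma cells and the counts of called ER genes are given with and without them.

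Barcodes were otherwise little shared between tables. The tables held 97157 distinct barcodes, 6127 of which occurred in more than 1 table. Of the barcodes of the plasma cells, 4 also occurred in another table and 0 were plasma cells in both. Total UMIs per table ran from 43110875 to 92699378, and the median over cells from 2820 to 3885. Among B cells the median was 2236 to 2585 UMIs in control rats and 2811.5 to 4269 in drug rats, so that the groups did not overlap in the depth of these cells.

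The 66 cells varied widely. They held 504 to 27702 UMIs (median 4765.5) and 309 to 4768 detected genes (median 1064). MZB1 ran from 2 to 188 UMIs (median 17) and JCHAIN from 0 to 1090 (median 29.5), and since both chose the cells these are a description only. Near the edge of the rule, 6 cells had a sum of exactly 5 UMIs, 0 cells a sum of 6, and 16 cells outside it a sum of 4. With a sum of at least 5, 5 cells inside had 2 UMIs of MZB1, 9 outside had 1 and 123 outside had none. A further 122 cells met the MZB1 and JCHAIN part but held a UMI of the excluded genes, 116 of them of MS4A1, 8 of CD3E and 3 of C1QA, and 47 of the 122 had a sum of at least 20.

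The clearest division among the plasma cells was in features without gene names. Such features took 1.33% to 81.3% of a cell's UMIs (median 29.2%), while they took 1.90% to 2.61% of the summed B cells of each rat and 1.32% to 2.11% of all cells. B cells were defined as cells with at least 2 UMIs of MS4A1 and none of CD3E or C1QA, and numbered 4062. Above 20% lay 39 plasma cells, below 10% lay 21 and between them 6. A single such feature took up to 59.3% of a cell's UMIs, and the leading one differed between cells, with 24 leading features in 66 cells. For example, AABR07051534.1 led 5 cells of drug rat 6 that were deep (15218 to 24057 UMIs) and held it at 18.97% to 36.27% of their UMIs. What these features encode was not determined, because no file used here names them.

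The cells above 20% carried most of the other markers of plasma cells most often, but not IRF4. TNFRSF13B (TACI) was detected in 18 of these 39 cells and in 7 of the 16 barcodes of drug rat 6, and IRF4 in 14 and 1. Of the 39, XBP1 was detected in 34, SLAMF7 in 32, TNFRSF17 (BCMA, the survival receptor of plasma cells) in 25, PRDM1 in 23 and SDC1 (CD138) in 14. The ER chaperone HSP90B1 was detected in 39 of 39. In the 16 barcodes of drug rat 6, XBP1 was detected in 12, SLAMF7 in 7, PRDM1 in 4, TNFRSF17 in 2 and SDC1 in 1, and HSP90B1 in 16. These barcodes were shallower, with a median of 1219 UMIs against 7943 in the 39, and shares of cells with a UMI depend on depth. In their sum, PRDM1 stood at 267.5 CPM against 147.1 in the other 50 plasma cells, XBP1 at 624.1 against 584.3 and SLAMF7 at 490.4 against 402.0. TNFRSF13B stood at 356.6 against 82.9. TNFRSF17 (89.2 against 190.6), SDC1 (44.6 against 49.7) and IRF4 (44.6 against 64.2) went the other way.

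The 7 remaining cells below 10% went against the label. They were 2 cells of control rat 1, 2 of control rat 2 and 3 of drug rat 6, with 2777 to 11158 UMIs and 2 to 5 UMIs of MZB1. None held a UMI of SDC1, TNFRSF17, PRDM1 or SLAMF7, while XBP1 was detected in 2 of the 7 (8 UMIs, 7 of them in 1 cell) and HSP90B1 in 5. The cell with 7 UMIs of XBP1, of control rat 1, also held 71 of HSP90B1 and 216 of HSPA5. IRF4 was detected at 1 to 3 UMIs in cells of control rats 1 and 2 and drug rat 6. A cell of drug rat 6 also held 3 UMIs of TNFRSF13B. One cell of each of these control rats held 25 UMIs of STMN1 with 10 or 11 of CD79B, a component of the B cell receptor, and 3 of the 7 held 115 to 173 UMIs of CD74, the MHC class II invariant chain. They made up 4 of the 8 plasma cells of control rats 1 and 2, and results that compare control with drug cells are read with that in view.

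**Figure D1:**
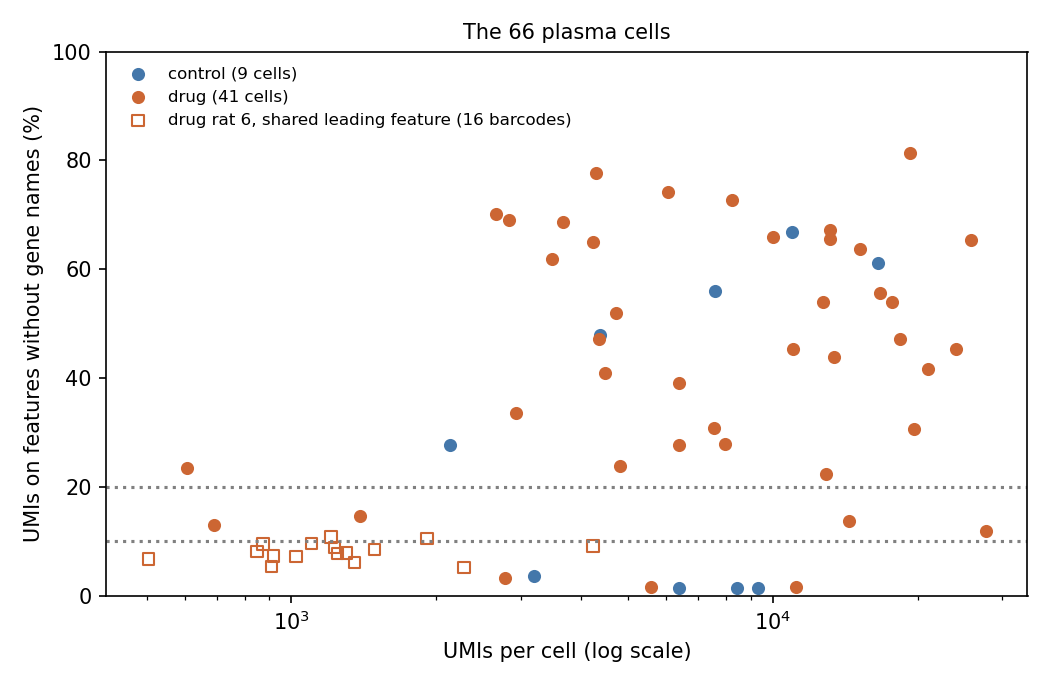
Each of the 66 plasma cells by its UMIs (log scale, x axis) and by the share of them on features without gene names (y axis, %), with control cells in blue, drug cells in orange and the 16 barcodes of drug rat 6 with a shared leading feature as open squares. Dotted lines mark 10% and 20%, and the open squares lie between 5.13% and 10.8% at the shallow end while 39 cells of both groups lie above 20%.

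Over all 66 cells, XBP1 was detected in 50, TENT5C (a poly(A) polymerase that stabilises immunoglobulin mRNA) in 43, SLAMF7 in 41, PRDM1 in 29, TNFRSF17 in 28, IRF4 in 19 and SDC1 in 16. Of B cells, 12.9% held a UMI of XBP1 and 0.345% a UMI of TNFRSF17. CD38 was detected in 6 plasma cells and CD27 in 1. PAX5, the factor that maintains B cell identity, was detected in 0 of 66, and so was SIGLECH, which marks plasmacytoid dendritic cells. A UMI of CD3D, a T cell gene that the rule did not use, was found in 10 cells. Of the 66, 42 held a UMI of at least 1 of the epithelial, stromal or T cell markers EPCAM, KRT14, KRT18, COL1A1, COL3A1, PECAM1 and CD3D. Without these 42 cells the difference in plasma cell share between drug and control rats was 0.0286 percentage points, with an exact permutation p of 0.310.

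As a guide to free RNA in the droplets, cells with at least 2 UMIs of EPCAM were examined (median 5977 to 11666 UMIs per cell). Doublets and plasma cells by the rule, such as that of drug rat 6 with 26 UMIs of EPCAM, were not taken out. The values are thus not a measure of free RNA alone. Per rat, 0.348% to 2.08% of these EPCAM cells held a UMI of JCHAIN, 0.0580% to 1.04% one of MZB1 and 1.10% to 5.69% one of IGHM. The highest values for all 3 genes came from drug rat 6. The plasma cells held 20.4% to 76.97% of all JCHAIN UMIs of their rat.

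IGHM, the heavy chain of IgM, was the heavy chain constant gene that could be measured. It ran from 0 to 2113 UMIs per plasma cell (median 18.5), with at least 100 UMIs in 21 cells and 0 in 11, and 8 of those 11 were among the 16 barcodes of drug rat 6. For shares per rat, IGHM was summed with IGLL1, the other listed immunoglobulin gene present, and 13428 of their 13437 UMIs were of IGHM. Together they took 3.21%, 0.745% and 1.59% of the plasma cell UMIs of control rats 1, 2 and 4. In drug rats 1, 2, 4, 6, 11 and 14 they took 2.76%, 4.096%, 17.3%, 1.51%, 1.80% and 8.18%. The groups overlapped, and the 2 highest values came from rats with 2 and 1 plasma cells. The mean was 5.93% ± 6.06 (SD, n = 6) in drug rats and 1.85% ± 1.25 (SD, n = 3) in control rats, with p = 0.214 by an exact two-sided permutation test over rats. IgA and IgG were not analyzed here. Features without gene names took 50.4% ± 12 (SD, n = 6) and 37.0% ± 19.8 (SD, n = 3), with an exact permutation p of 0.286. Among the 39 cells above 20% the difference (drug minus control) was -2.12 percentage points. Those cells were chosen by this same share, so their difference cannot show a reversal.

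The first question for the treatment was whether the gland held more or fewer plasma cells after TGFBRi. Plasma cells were 0.0304%, 0.0238% and 0.00848% of all cells in control rats 1, 2 and 4. They were 0.0933%, 0.0886%, 0.0167%, 0.288%, 0.0435% and 0.00915% in drug rats 1, 2, 4, 6, 11 and 14. 4 drug rats lay above all control rats and the other 2 lay within their range, so the groups overlapped. Counting error alone was large: the exact (Clopper-Pearson) 95% interval was 0.00989% to 0.0710% for control rat 1 and 0.199% to 0.402% for drug rat 6.

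The mean share was 0.0898% ± 0.103 (SD, n = 6) with the drug and 0.0209% ± 0.0113 (SD, n = 3) without, a difference of 0.0689 percentage points. The exact two-sided permutation test over rats gave p = 0.214, where the smallest p that 3 against 6 rats allow is 0.0238. Without the 16 barcodes the share in drug rat 6 was 0.152%, the difference 0.0464 and p again 0.214. Leaving out drug rat 6 altogether gave a difference of 0.0294. After each cell was thinned to 1000 UMIs, with 1046 to 2025 shallower cells per rat left out, the difference was 0.0820 and the exact permutation p 0.238. Over all alternatives tried, p ran from 0.107 to 0.690. A difference in the share was thus not detected at this depth, with an SD among drug rats larger than the difference.

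**Figure D2:**
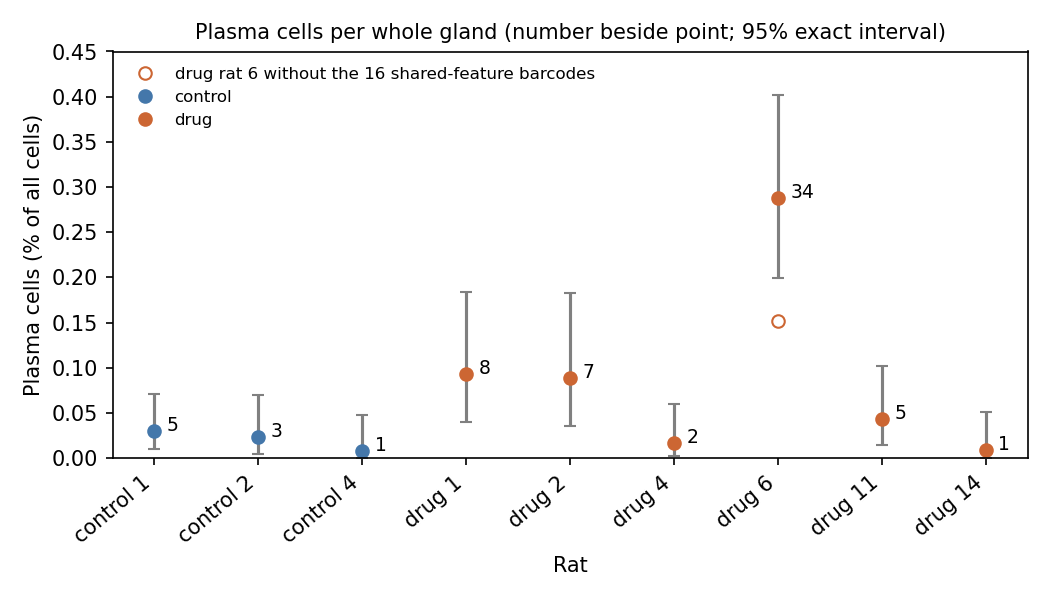
Plasma cells as a share of all cells (y axis, %) in each of 3 control (blue) and 6 drug (orange) rats, with exact 95% intervals as bars and the number of plasma cells beside each point. The open circle is drug rat 6 without its 16 shared-feature barcodes (0.152%), and the other drug rats span 0.00915% to 0.0933%, overlapping the control range of 0.00848% to 0.0304%.

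The number of plasma cells relative to other leukocytes overlapped between the groups, while the leukocytes themselves did not. Cells with a UMI of PTPRC (CD45, carried by leukocytes) were 15.1% to 29.1% of all cells in control rats and 33.4% to 44.5% in drug rats, and B cells 0.806% to 3.11% and 3.83% to 6.95%. Their part in the plasma cell share was not tested. Per 100 cells with a UMI of PTPRC, control rats had 0.0560 to 0.105 plasma cells and drug rats 0.0274 to 0.735. This is a ratio, since a UMI of PTPRC was found in only 27 of the 66 plasma cells and in 16 of the 34 of drug rat 6. The means were 0.0846 ± 0.0254 (SD, n = 3) and 0.221 ± 0.264 (SD, n = 6), exact permutation p = 0.429. Per 100 B cells, rats had 0.230 to 5.81 plasma cells, with the highest value again in drug rat 6. The median depth per plasma cell was 7096 ± 2496 UMIs (SD, n = 3) in control rats and 8103 ± 8893 (SD, n = 6) in drug rats, exact permutation p = 0.786.

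Division of the cells was read from genes of G2 and M phase. At least 2 UMIs over that list of genes were found in 42 of 66 cells, 27 of them in drug rat 6, but MKI67, which marks dividing cells, was detected in 14. The share of cells with at least 2 such UMIs was 53.3% ± 50.3 (SD, n = 3) in control rats and 49.4% ± 38.5 (SD, n = 6) in drug rats, exact permutation p = 0.976. With 1 to 8 cells in 8 of the 9 rats, the share could not be estimated well in any of them. MKI67-positive cells numbered 2 in control rat 1, 1 in control rat 2, 1 in drug rat 1 and 10 in drug rat 6, with 0 in the other 5 rats.

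Next, genes were compared between plasma cells and B cells of the same rats, in the 6 rats with at least 3 plasma cells (control rats 1 and 2, drug rats 1, 2, 6 and 11). Sums held 464599 UMIs from 62 plasma cells and 13156464 UMIs from B cells. By edgeR's quasi-likelihood test with the rat as a block, 1228 of 11926 features were called at a p of 0.1 or less after Benjamini-Hochberg adjustment, 10.3% of those tested. They comprised 807 higher in plasma cells (6.77%) and 421 lower (3.53%). Because the cells were chosen by MZB1 and JCHAIN and against MS4A1, these calls describe the cells and are not independent evidence of their type. Without the 16 barcodes, 725 features were higher and 507 lower, and without drug rat 6 altogether 673 were called, 428 higher and 245 lower.

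Scaling mattered for this comparison. On plain library sizes, the median log2 fold change of all features was -1.16. With TMM factors from genes with at least 1000 UMIs it was -0.15, and the log2 fold changes below are on that scale, while CPM values are on plain library sizes. On plain library sizes 365 features were higher and 3323 lower. Ribosomal protein genes show the shift: 0 of 19 were called with TMM (median log2 fold change -0.15) and 16 of 19 were lower without it.

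The ER machinery was higher in plasma cells as a group. The first step is the entry of nascent protein into the ER, and 22 of 26 measured genes of translocation, signal peptide cleavage and N-glycosylation were higher and 0 lower (median log2 fold change 2.37, against -0.15 over all features, 21 of 26 without the 16 barcodes and 17 without TMM). SSR4, a subunit of the translocon-associated protein complex, stood at 1859 to 5472 CPM in plasma cells (median 2650) and at 351.5 to 513.9 CPM in B cells (median 412.8). Its ranges did not overlap, and its log2 fold change was 3.80 ± 0.38 (SE, 6 rats). SEC11C, a catalytic subunit of signal peptidase, stood at 286.6 to 1012 CPM against 43.2 to 89.7, a log2 fold change of 4.6 ± 0.42. SEC11A, the other catalytic subunit, had a log2 value of 0.16 ± 0.49 and was not called. DDOST and RPN2 of the oligosaccharyltransferase, which attaches glycans to asparagine, had log2 fold changes of 3.73 ± 0.41 and 3.01 ± 0.42.

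Protein folding genes had the largest median of the 4 ER and Golgi lists, with 24 of 27 measured genes higher and 0 lower (median log2 fold change 3.00, 23 without the 16 barcodes, 21 higher and 1 lower without TMM). HSP90B1 (GRP94), the ER member of the HSP90 family, stood at 1003 to 5471 CPM (median 3128) in plasma cells and 275.3 to 436.4 CPM (median 311.1) in B cells. Every rat was higher in plasma cells, by 4.13 ± 0.41 on the log2 scale. SDF2L1, a partner of ER chaperones, was detected in 45 of 66 plasma cells and stood at 447.4 to 1862 CPM against 19.6 to 69.7 CPM (log2 fold change 5.29 ± 0.44). PDIA4 and TXNDC5, which form disulphide bonds, gave 4.59 ± 0.43 and 4.03 ± 0.41, CRELD2 gave 4.50 ± 0.46, DNAJC3 3.89 ± 0.43, and HSPA5 (BiP), the ER HSP70, 3.00 ± 0.39. CANX, ERO1A and PDIA5 had positive values of 1.05 ± 0.40, 1.31 ± 0.49 and 1.95 ± 0.76. Of the 27 genes 3 were not called, among them GRPEL1, a mitochondrial co-chaperone in the same list, at -0.32 ± 0.48.

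The promoters of some of these genes are shown because 7 of 23 with a window share a known element. The ER stress response element (ERSE), with the letters CCAAT and CCACG 9 bases apart on either strand, is bound by NF-Y and by ATF6 or XBP1. Windows from 250 bases before to 50 after the transcription start were taken from RefSeq on GRCr8, a later build than the rn6 of the counts. ERSE was present in 7 of 23 folding genes with a window (30.4%), namely CRELD2, HSP90B1, DNAJC3, HSPA5, ERO1B, CALR and CANX, and in 21 of 27457 windows of all genes (0.0765%). Among genes measured here, it was in 0 of 24 translocation, 0 of 13 ER degradation, 0 of 19 ER-Golgi transport and 0 of 6 B cell surface windows. DERL3, a degradation gene of the list with no value in this comparison, has 1 match in its window. The related ERSE-II (ATTGG, any base, CCACG) was in 2 of 23 folding windows and 0.0546% of all, and the core TGACGTG of the XBP1 element in 3 of 23 and 1.88% of all. The core was also in 3 of 13 ER degradation (23.1%), 4 of 19 ER-Golgi transport (21.1%), 2 of 24 translocation (8.33%) and 0 of 6 B cell surface windows, and ERSE-II in 1 of 13 ER degradation windows and in 0 of the other lists. A match is a string of letters and not a measured binding site. The 4 windows below belong to genes of the list with log2 fold changes of 3.00 to 4.50, are written 5′ to 3′ along the gene, and carry the ERSE in capitals. They lie at chr7:121789134-121789433 on the plus strand (CRELD2), chr7:23012244-23012543 on the minus strand (HSP90B1, 2 matches), chr15:102432417-102432716 on the plus strand (DNAJC3) and chr3:38452766-38453065 on the plus strand (HSPA5).
CRELD2: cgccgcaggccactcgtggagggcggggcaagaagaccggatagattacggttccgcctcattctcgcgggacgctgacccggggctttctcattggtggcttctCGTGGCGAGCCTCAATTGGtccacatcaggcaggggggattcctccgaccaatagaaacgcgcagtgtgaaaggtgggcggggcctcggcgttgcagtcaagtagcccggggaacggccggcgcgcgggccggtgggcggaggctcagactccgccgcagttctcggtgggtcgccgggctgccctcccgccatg
HSP90B1: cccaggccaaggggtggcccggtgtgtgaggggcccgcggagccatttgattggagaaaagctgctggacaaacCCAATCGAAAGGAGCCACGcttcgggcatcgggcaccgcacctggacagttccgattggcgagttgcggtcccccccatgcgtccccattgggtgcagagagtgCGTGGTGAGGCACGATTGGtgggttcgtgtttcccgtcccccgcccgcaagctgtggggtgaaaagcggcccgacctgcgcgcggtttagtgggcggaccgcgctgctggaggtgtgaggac
DNAJC3: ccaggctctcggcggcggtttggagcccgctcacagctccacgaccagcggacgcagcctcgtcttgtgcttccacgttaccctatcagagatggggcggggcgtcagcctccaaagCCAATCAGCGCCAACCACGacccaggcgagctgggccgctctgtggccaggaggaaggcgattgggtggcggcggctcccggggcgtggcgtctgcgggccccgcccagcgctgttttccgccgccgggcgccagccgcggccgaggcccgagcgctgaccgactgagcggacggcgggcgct
HSPA5: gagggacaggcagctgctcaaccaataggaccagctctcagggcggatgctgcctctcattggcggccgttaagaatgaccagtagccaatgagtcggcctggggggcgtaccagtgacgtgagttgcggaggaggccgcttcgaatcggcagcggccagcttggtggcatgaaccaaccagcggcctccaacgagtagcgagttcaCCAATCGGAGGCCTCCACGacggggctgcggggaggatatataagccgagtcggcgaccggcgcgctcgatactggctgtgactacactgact

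Genes that clear misfolded protein from the ER were also higher, 14 of 16 measured (median log2 fold change 2.46, 14 without the 16 barcodes, 11 without TMM), with 0 lower. EDEM2, which trims mannose from glycoproteins bound for degradation, stood at 126.7 to 501.6 CPM against 15.9 to 29.03 CPM in B cells (log2 fold change 4.67 ± 0.42). SEL1L, the adaptor of the degradation complex, gave 3.82 ± 0.41 and its ubiquitin ligase SYVN1 gave 1.25 ± 0.40. VCP, the ATPase that extracts the proteins, gave 0.91 ± 0.37 and was not called.

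Of the genes of transport between ER and Golgi, 17 of 23 were higher and 0 lower (median log2 fold change 1.89, 17 without the 16 barcodes), and 9 remained called without TMM. LMAN1, a cargo receptor, stood at a median of 244.8 CPM against 45.2 CPM (log2 fold change 3.58 ± 0.44), and the COPII coat gene SEC24D gave 3.80 ± 0.51. The retrieval receptors KDELR1, KDELR2 and KDELR3 gave 2.69 ± 0.48, 2.32 ± 0.43 and 3.79 ± 0.56. The COPI coat genes COPA and COPB1 gave 0.86 ± 0.43 and 0.38 ± 0.43 and were not called.

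Among regulators of plasma cells, 9 of 12 were higher and 0 lower (median log2 fold change 2.17), and without TMM 6 were higher and 2 lower. XBP1 stood at 71.7 to 854.2 CPM (median 469.5) against 46.2 to 76.1 CPM (median 55.8), higher in every rat but in control rat 2 by little (71.7 against 66.4 CPM). Its log2 fold change was 4.12 ± 0.45. PRDM1 stood at 0 to 291.1 CPM against 7.43 to 22.1, with 0 in control rat 2, and gave 4.21 ± 0.51. TENT5C gave 3.63 ± 0.45. IRF4 gave 0.68 ± 0.44 and was not called. ATF6, a sensor of the folding load of the ER, gave 2.37 ± 0.45, but was higher in only 3 of 6 rats by CPM.

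The stress branch that runs through ATF4 and CHOP differed between its genes. Of 9 genes, 3 were higher and 0 lower (median log2 fold change 0.65), but without TMM 1 was higher and 4 lower. The 3 were CHAC1, which degrades glutathione, at 3.72 ± 0.57, ASNS, asparagine synthetase, at 1.89 ± 0.50, and ATF4 itself at 1.14 ± 0.36. Without TMM, CHAC1 was the 1 of these 3 still called, and ATF4 had a log2 value of 0.08 and ASNS 0.96. DDIT3 (CHOP), ATF3 and TRIB3 gave 0.65 ± 0.46, -0.11 ± 0.60 and -0.86 ± 0.71, none called.

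**Figure D3:**
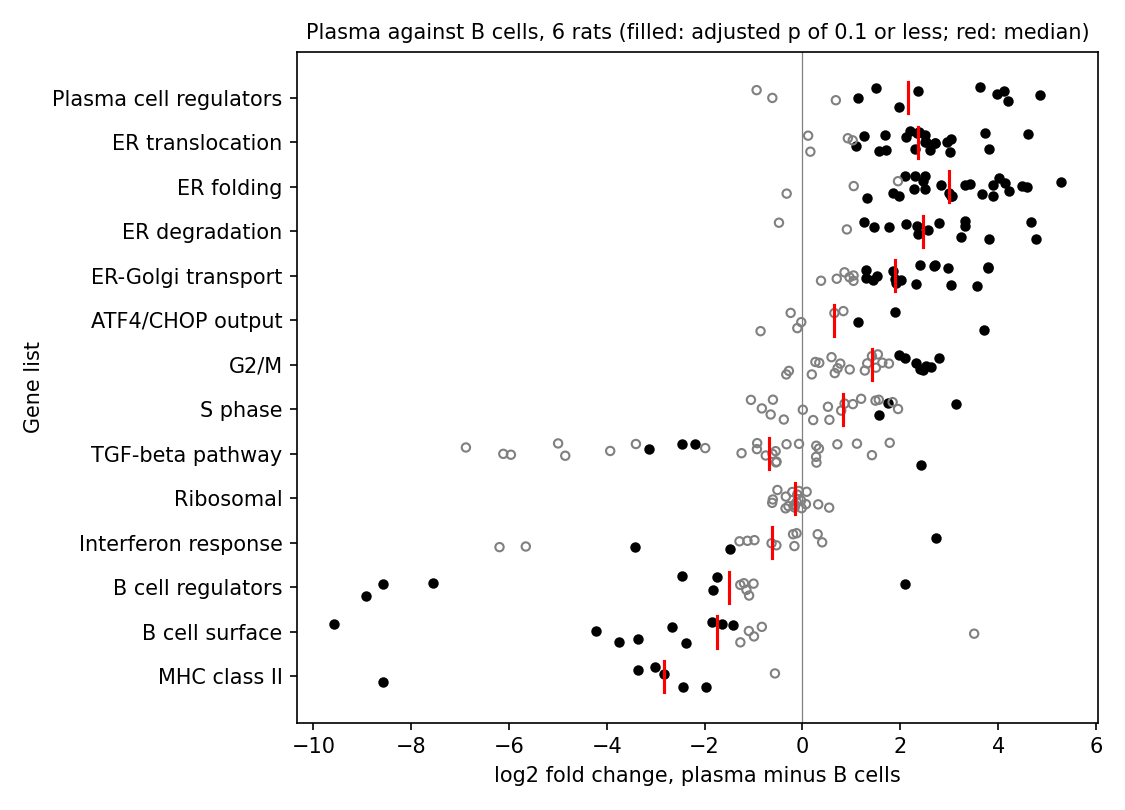
Log2 fold change of each listed gene (x axis, plasma minus B cells, 6 rats) by gene list (y axis), with filled points for an adjusted p of 0.1 or less, open points for the rest and red bars for the median of each list. The ER lists have medians of 1.89 to 3.00, ribosomal genes lie around -0.15, and the MHC class II list has the lowest median of the lists drawn at -2.82.

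Genes of the mature B cell were lower. Of 14 measured B cell surface genes, 9 were lower and 0 higher (median log2 fold change -1.74), where 3.53% of all features were lower. Without TMM 13 were lower, with 3323 of 11926 features lower. FCER2 (CD23) stood at 0 to 16.2 CPM in plasma cells and 233.2 to 347.9 CPM in B cells (log2 fold change -4.23 ± 0.68), and CR2 (CD21) and BANK1 gave -3.35 ± 0.72 and -2.67 ± 0.63. CXCR5, the receptor that draws B cells into follicles, had 0 UMIs in plasma cells and 94.6 CPM in B cells. A floor of 3 counts over the summed plasma cells is 6.46 CPM, so CXCR5 was at least 14.7-fold lower on plain library sizes. On the TMM scale, where the median over all features was -0.15 in place of -1.16, the limit is lower. CD79B, part of the B cell receptor, had -0.83 ± 0.37 and was not called, at 197.5 to 859.9 CPM against 825.8 to 1467 CPM. By CPM it was lower in 6 of 6 rats, and it was called lower without TMM and in DESeq2.

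Of 12 B cell regulators 6 were lower, and 11 without TMM. Among the 6 were ID3, IRF8 and FOXO1, and PAX5, BACH2 and CIITA had 0 UMIs in all 66 plasma cells. POU2AF1 (OCA-B), a coactivator of immunoglobulin transcription, was the 1 of the list that was higher, at 215.0 to 623.7 CPM against 103.1 to 202.2 CPM (log2 fold change 2.09 ± 0.39). MHC class II was lower in 6 of 7 measured genes, and in all 7 without TMM. RT1-DA stood at 0 to 2866 CPM (median 314.3) against 6383 to 9326 CPM (median 7066), a log2 fold change of -3.36 ± 0.50. Of its 507 UMIs in all plasma cells, 258 lay in 1 cell of drug rat 6 with 2 UMIs of MZB1 and 51 of LYZ2, a myeloid gene, and 20.9% in the 7 cells that went against the label. In the cells above 20% its log2 fold change was -3.96, with 6 of 7 MHC class II genes again lower. CD74 had -0.56 ± 0.29 and was not called, with 3715 to 19993 CPM against 19793 to 22569 CPM. Its highest plasma cell value came from control rat 2. By CPM it was lower in 6 of 6 rats, and it was called lower without TMM and in DESeq2.

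**Figure D4:**
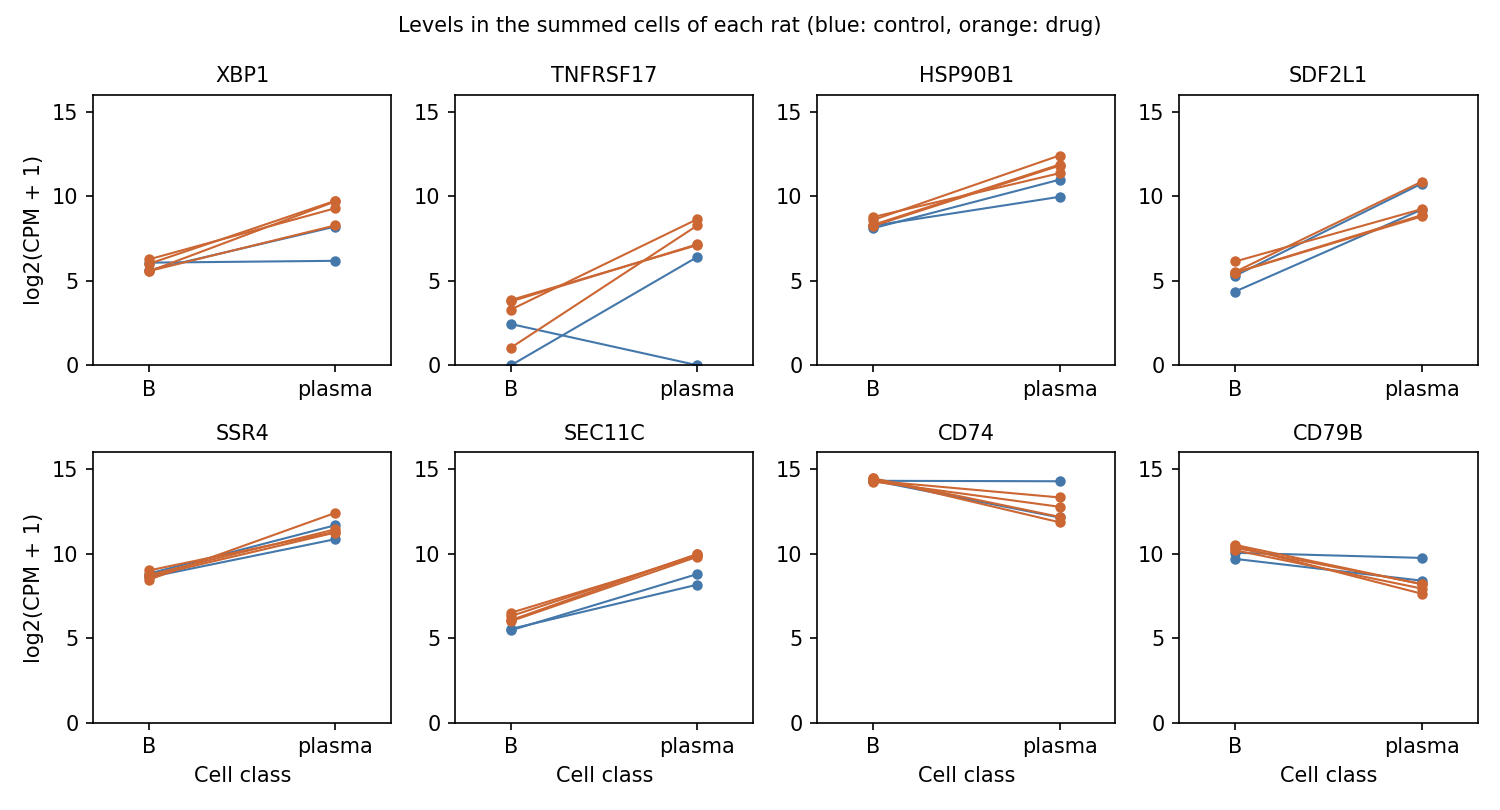
Level of 8 genes in the summed B cells and summed plasma cells of each of 6 rats (y axis, log2 of CPM plus 1, with a line per rat, blue for control and orange for drug). XBP1, HSP90B1, SDF2L1, SSR4 and SEC11C were higher in plasma cells in 6 of 6 rats and TNFRSF17 in 5 of 6, while CD74 and CD79B were lower in 6 of 6.

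Surface and survival receptors split. Of 17 measured, 6 were higher and 3 lower (median log2 fold change 0.53), and without TMM 3 were higher and 6 lower. TNFRSF17 stood at 0 to 402.0 CPM (median 140.1) against 0 to 13.5 CPM (log2 fold change 5.94 ± 0.54), SLAMF7 gave 3.80 ± 0.50 and TNFRSF13B (TACI) 2.95 ± 0.45. TNFRSF13C, the BAFF receptor of B cells, gave -2.78 ± 0.55. SDC1 gave 1.61 ± 0.56, but was higher in only 3 of 6 rats by CPM and was not called without TMM or in DESeq2. CXCR4, which holds plasma cells in their niche, gave -0.36 ± 0.46 and was not called. IGHM was higher by 5.23 ± 0.36, at 7453 to 40962 CPM against 794.7 to 2029 CPM.

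Genes chosen by size of difference, without regard to the lists, included HCST (DAP10, a signalling adaptor known from NK and T cells) at 5.02 ± 0.42 and ARF3, a small GTPase of the Golgi, at 4.69 ± 0.43. On the lower side, CCL21, SLPI, KRT17, FGD3 and CNR2 had 0 UMIs in plasma cells. On plain library sizes, to which all limits in this paragraph refer, FGD3 and CNR2 were at least 11.03-fold and 10.2-fold lower. For the others 1 rat held most of the B cell UMIs, drug rat 2 for SLPI, an epithelial secretory protein (83.3%), and control rat 1 for CCL21 (57.03%) and KRT17 (52.23%). With that rat's B cells left out and the same floor, SLPI was at least 6.46-fold, CCL21 at least 14.3-fold and KRT17 at least 10.1-fold lower, against limits of 31.02-fold, 28.8-fold and 18.4-fold over all 6 rats. Of 577 features without gene names, 36 were higher and 41 lower, where 6.77% of all features were higher and 3.53% lower.

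Markers of other cells were read against the 6.77% of all features that were higher and the 3.53% that were lower. Of 8 T and NK cell markers tested, CD4, CD3G and CD3D were higher in plasma cells (14, 36 and 26 UMIs in these rats), while CD8A, CD247 and NKG7 had 0. Of 10 macrophage and dendritic cell markers CD68 was higher (8 UMIs), and C1QB and C1QC had 0. Of 11 epithelial and 12 stromal markers 3 and 3 were lower and 0 higher (median log2 fold changes -1.52 and -1.44, against -0.15 over all features). Their part in the differences was not tested. Of interferon-response genes, 1 of 15 was higher (BST2) and 2 lower, and of the immediate early genes, which respond to tissue dissociation, 2 of 13 were higher and 2 lower. Among 25 measured G2/M genes 8 were higher and 0 lower, MKI67 by 2.79 ± 0.55, and of 20 S phase genes 3 were higher, RRM2 by 3.13 ± 0.52. Of the 761 G2/M UMIs of all plasma cells, 271 (35.6%) lay in the 7 cells that went against the label, and 198 in 1 cell of control rat 1. In the cells above 20%, 3 of 25 G2/M genes were higher and 0 lower, with MKI67 at 2.27, and of the S phase genes 1 was higher and 1 lower. Without TMM the counts were 5 higher and 1 lower for G2/M, and 1 higher and 4 lower for S phase. Niche factors gave 0 higher and 1 lower of 7, and granulocyte and mast cell markers 0 of 1. Of 4 plasmacytoid dendritic cell markers 1 was higher, again BST2, and 2 lower.

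The pathway that the drug blocks was sparsely detected. A UMI of TGFBR1, the kinase that TGFBRi inhibits, was found in 4 of 66 plasma cells, of TGFBR2 in 9, of SMAD3 in 2 and of SMAD7, an induced inhibitor of the pathway, in 1. All UMIs of SMAD3 (3) and SMAD7 (1) and 6 of the 13 of TGFBR2 lay in the 7 cells that went against the label. Of B cells, 6.55% held a UMI of TGFBR1 and 31.3% one of TGFBR2. Of 30 measured pathway genes, 1 was higher and 3 lower in plasma cells (median log2 fold change -0.68). Of all features, 6.77% were higher and 3.53% lower. Without TMM 0 of the 30 were higher and 13 lower, with 3323 of 11926 features lower. In the cells above 20%, 1 of the 30 was higher and 7 lower, with a median of -3.08. Over all features in those cells the median was -0.49, with 588 of 11708 lower. TGFB1, the ligand, stood at 0 to 143.3 CPM against 337.4 to 504.3 CPM (log2 fold change -2.20 ± 0.53), with ID3 and SMAD7 also lower, and TGFB3 was called higher on 5 UMIs, all of them in drug rat 6, with 0 CPM in the plasma cells of the other 5 rats.

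Last, genes were compared between drug and control plasma cells, in 4 drug rats (54 cells) and 2 control rats (8 cells). By edgeR's quasi-likelihood test, 22 of 3592 features were called (0.612%), 4 higher with the drug (0.111%) and 18 lower (0.501%). This balance depended on the setting, with 0 higher and 30 lower without TMM, 68 and 68 without immunoglobulin genes and features lacking gene names, 60 and 53 with all 9 rats, and 72 and 51 for features with at least 1 UMI. Of the 17 lower calls with a gene name, all 17 had most of their control UMIs in the 4 control cells below 10% described above, and 9 had all of them in 1 or 2 cells. HMOX1, heme oxygenase, illustrates it: 206 control UMIs against 28, with 86.3% of all its UMIs in 1 cell of control rat 1. KDR, an endothelial receptor, had 96% of its UMIs in 1 cell of control rat 2. CD24, SELP, AKAP12 and DEK, with the lowest p among named genes, had 94.1% to 100% of their control UMIs in those cells. Restricted to cells with over 20% of UMIs on features without gene names, the test used all 9 rats, with 5 control cells. It called 1 of 2369 features, which was not among the 22. With all plasma cells of the 9 rats, 113 of 3707 features were called.

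The 4 higher calls rested on few control UMIs. The UMI counts below are not scaled to depth. Control rats 1 and 2 held 47347 and 13955 plasma cell UMIs, and drug rats 1, 2, 6 and 11 held 72146, 49168, 246532 and 35451. TENT5C stood at 126.7 and 71.7 CPM in control rats 1 and 2, and at 596.0, 671.2, 620.6 and 536.0 CPM in drug rats 1, 2, 6 and 11. These values did not overlap (log2 fold change 2.95 ± 0.68, adjusted p = 0.0931). The rats left out of the test had 394.7 CPM in the 1 cell of control rat 4, 713.9 in drug rat 4 and 580.5 in drug rat 14, and with all 9 rats the adjusted p was 0.143. KDELR1 stood at 21.1 and 0 CPM against 346.5, 427.1, 288.0 and 169.2 CPM (1 against 123 UMIs, log2 fold change 4.6 ± 0.98), but was also 0 in control rat 4, drug rat 4 and drug rat 14. IFT20 had 0 control UMIs and 80 drug UMIs, and ENPP3, an ectonucleotidase, had 1 and 88, though the cell of control rat 4 held it at 526.3 CPM. HYOU1, an ER chaperone with the next lowest p, had 2 and 115 UMIs and was not called. As the control sums hold 4 cells that go against the label, these values cannot be told apart from a difference in which cells the rule took.

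No list had more than 1 called gene. Among the translocation genes 26 of 26 had a positive log2 value (median 1.55, against 0.26 over all features) and 0 were called, while 2087 of 3592 features were positive. In the cells above 20% the median was 0.79, against 0.86 over all features. The folding list had a median of 1.48, and 0.87 in those cells. For ER-Golgi transport these medians were 1.25 and 1.34, and for regulators of plasma cells 2.11 and 1.36. The cell cycle lists went the other way, with 13 of 14 S phase and 16 of 18 G2/M genes negative (medians -1.12 and -1.05). In the cells above 20% their medians were 3.55 and 2.44, over 7 genes each. The 5 control cells among these held 0 to 2 S phase and 0 to 7 G2/M UMIs each. Genes with at least 10 UMIs were thus tested mainly because of drug cells, so these medians show no reversal. XBP1 and PRDM1 gave 2.09 ± 0.76 and 3.69 ± 1.08, not called. Of the TGFβ pathway 6 genes could be tested and 0 were called, and IGHM gave 0.76 ± 1.51.

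The treatment effect in plasma cells was also set against that in B cells of the same rats, as an interaction in edgeR. It was called for 123 of 11926 features (1.03%), 53 higher (0.444%) and 70 lower (0.587%). Several of the features with the lowest p had no gene name, such as AABR07065645.1, whose 170 control UMIs came from 1 cell of control rat 1. In cells above 20%, and with either control rat left out, the fit held 1 control rat. The counts of those fits, listed with the alternatives below, therefore cannot show whether the interaction holds.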

How the data were processed

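Per the labels and the study's methods, the authors dissociated unsorted glands of 3 control and 6 drug SD rats, made 10x 5′ libraries, aligned reads to rn6 with Cell Ranger 7.0.0 without intronic reads and filtered cells on genes and mitochondrial reads in Seurat 4.1.1. The deposited values are whole-number UMI counts for each gene in each cell, without normalization. Of 18237 features, 2041 carry clone names only. All deposited cells were used and doublets were not called.

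Members were found by the UMI rule and summed per rat. Members and gene lists were chosen with earlier results of these data known. Sums were tested with edgeR 4.0.16 (quasi-likelihood, features with at least 10 UMIs, adjusted p of 0.1 or less). Fits used rats with at least 3 plasma cells, because the minimum of 10 planned left 1 rat. For plasma against B cells and the interaction, TMM factors came from genes with at least 1000 UMIs. The reason was that on simulated plasma and B cell counts TMM over all genes gave false lower calls. The drug against control fit used TMM over every feature tested. Simulated 4-fold changes in 200 genes were recovered at 41.5% with 12.6% false calls (plasma against B cells, 11699 genes) and at 37.0% with 3.90% (drug against control, 3142 genes). The changed genes were drawn from those well above the UMI minimum, with the same dispersion for all genes. These rates therefore do not cover features with few UMIs or counts that lie mostly in single cells. Shares were tested by exact permutation over rats (SciPy 1.17.1). Intervals and floors cover counting error only. Named genes outside the lists were those past the threshold with the largest change, at least 20 UMIs per rat on average and one direction in every rat (plasma against B cells), or, as fewer than 5 passed, those with the lowest p (drug against control). The labels state no pairing of rats by replicate number, so the main fits used none. The correlations of deviations of same-numbered rats were 0.283, -0.0446 and 0.378 over 15460 genes. They were not set against differently numbered rats, so they cannot decide whether the numbers pair the rats. Alternatives included DESeq2 1.42.0, other filters, scalings and rules, and leaving out each rat.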

Additional observations from a re-analysis of the deposited data

Results flagged for a closer look

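The share of plasma cells among all cells in drug rat 6, 0.288%, was far from the other 5 drug rats, with a gap to its nearest neighbour of 0.698 of the whole range. Without the 16 barcodes with a shared leading feature the value was 0.152%. Its ratio of 0.735 plasma cells per 100 cells with PTPRC, which 16 of its 34 plasma cells carried, stood apart in the same way, with a ratio of 0.731. The median of 25841 UMIs per plasma cell in drug rat 14 was far above the other drug rats (ratio 0.761) and comes from 1 cell. By chance alone such a gap is flagged in about 5 of 100 groups.

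The treatment effect differed between plasma cells and B cells for 123 features in edgeR's interaction test, 53 with a higher and 70 with a lower value in plasma cells. In DESeq2 the test called 10, and all 10 were among the 123. DEK, CD24, KDR, SELP and IL33 are among those with a lower value, and most of their control plasma cell UMIs lay in the 4 control cells with under 10% of UMIs on features without gene names.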

How the results depend on the processing

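The share of plasma cells among all cells and their number per 100 cells with PTPRC kept their direction and did not pass the threshold under any alternative tried, at exact permutation p of 0.107 to 0.690 and 0.214 to 0.810. Leaving out each rat moved the difference from 0.0294 to 0.0851 percentage points, and from 0.0336 to 0.175 per 100 cells with PTPRC. With rats 1, 2 and 4 treated as pairs (replicate block) they were 0.0453 (p = 0.25, the smallest that 3 pairs allow) and 0.0690 (p = 0.5), by exact sign flips.

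Differences that were not called also changed sign. The share of cells with G2/M UMIs differed by -3.97 percentage points, and by 9.17 with at least 10 UMIs in the rule, 6.94 without cells with UMIs of other cell types, 2.29 in cells above 20% of UMIs on features without gene names, and -30.6 to 19.4 when each rat was left out. Median UMIs per plasma cell differed by 1007, by -113.5 without cells with UMIs of other types, by -1781 in the replicate block and by -2541 to 2122 without each rat. The share of IGHM with IGLL1 differed by -1.71 without cells with UMIs of other types. The share of features without gene names differed by -3.37 with at least 10 UMIs in the rule and -0.775 without cells with UMIs of other types. It differed by -2.12 in cells above 20%, which were chosen by this same share. The cause was not tested.

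Counts of called features depended on the setting. For plasma against B cells, 1228 became 3688 without TMM and 2111 with TMM over every gene, and ran from 673 (without drug rat 6) to 1314 when each rat was left out. Without the rat as a replicate block it was 1437. For drug against control, 22 of 3592 features became 13 with DESeq2 and 30 without TMM. Without immunoglobulin genes and features lacking gene names together, 136 of 3490 were called. It became 113 of 3707 with all 9 rats, and 1 of 2369 in the cells above 20% of all 9 rats. The fit with at least 10 UMIs in the rule held 1 control rat, so its count is left out. The count became 123 of 10060 for features with at least 1 UMI, and 0 of 1341 for features with at least 30 UMIs (214 at an unadjusted p under 0.05). It was 276 of 1522 and 192 of 1600 with the replicate block for rats 1 and 2 or 1, 2 and 4. When each drug rat was left out it was 1 to 58. For the interaction, the fits in cells above 20% and with either control rat left out held 1 control rat. Their counts are listed next for completeness only and cannot show whether the interaction holds. The interaction count of 123 became 10 with DESeq2, 75 with TMM over every gene, 16 in cells above 20%, and 38 to 115 without each rat.

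The drug against control test could not be fitted without cells with UMIs of other cell types. The share of IgA plasma cells was not run. With 66 cells, 9 of them in controls, the number of cells limits the precision of every treatment comparison. The fits on rats with at least 3 plasma cells, the TMM choice, the 20% division, the fits without the 16 barcodes and on all 9 rats, and the block of 3 numbers for genes were chosen after seeing the data.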
